A study of Mus musculus with 4 samples.

Results

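Histone modifiers and chromatin remodellers were followed in subclones of the mouse hybridoma 36-65. The members are 33 genes listed by symbol, and every probe set whose platform symbol is one of them was taken: 83 of the 45037 probe sets tested, for 32 genes. Suv39h1 was not analysed here. A hybridoma is a fusion of a B cell and a myeloma cell that grows without limit and secretes 1 antibody. In class switching such a cell replaces the heavy chain constant region of its antibody. The labels give 2 subclones that switched at low frequency in culture (L25 and L27, low switching replicates 1 and 2) and 2 that switched spontaneously at high frequency (H23 and H27, high switching replicates 1 and 2). Each subclone descends from the same hybridoma, is a single clonal line, was grown in the same medium with 10% fetal calf serum, and was read on 1 Affymetrix array of total RNA. Nothing in the labels says how the subclones of a class are related. Every limma p-value below sets a class difference against the spread of these 4 subclones, moderated over all probe sets, and covers no other subclones. With 1 array for each subclone, variation between subclones and between arrays cannot be told apart.

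Nuclear DNA is wrapped around histones, and enzymes that mark histones or move nucleosomes set which genes can be read. Polycomb complexes and the methyltransferases of heterochromatin lay down marks of silent genes, while the KMT2 (COMPASS) enzymes and acetyltransferases mark active ones, and demethylases and deacetylases take marks away. The SWI/SNF, CHD and NuRD complexes use ATP to slide or evict nucleosomes. In B cells, class switching runs through transcribed switch regions of the heavy chain locus, whose histone marks change when they are transcribed.

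The sequences shown are the 250 bases before the annotated starts of the members on which the values below turn: the SWI/SNF ATPase genes Smarca4 and Smarca2, the deacetylase gene Hdac9, and the Polycomb genes Ezh2 and Eed. They come from RefSeq, build GRCm38.p6, and 29 of the 33 members matched that table. They are written 5′ to 3′ along the gene's strand, and capitals mark motifs searched on both strands. The GC box was searched as GGGCGG. The second motif, the CCAAT box, was searched under the letters of its name. The TATA box was searched as TATAAA.
Smarca4, chr9:21615919-21616168, plus strand: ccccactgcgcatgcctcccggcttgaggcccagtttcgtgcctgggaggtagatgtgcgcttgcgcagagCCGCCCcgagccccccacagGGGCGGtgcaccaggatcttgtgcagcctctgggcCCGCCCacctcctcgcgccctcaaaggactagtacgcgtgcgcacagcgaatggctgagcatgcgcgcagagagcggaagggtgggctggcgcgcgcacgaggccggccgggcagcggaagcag
Smarca2, chr19:26604910-26605159, plus strand: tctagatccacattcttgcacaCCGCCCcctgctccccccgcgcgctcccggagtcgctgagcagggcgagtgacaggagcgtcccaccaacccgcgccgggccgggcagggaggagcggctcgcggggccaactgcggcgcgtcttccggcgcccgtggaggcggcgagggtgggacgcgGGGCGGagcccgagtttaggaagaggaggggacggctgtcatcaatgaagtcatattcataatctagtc
Hdac9, outer start, chr12:34917096-34917345, minus strand: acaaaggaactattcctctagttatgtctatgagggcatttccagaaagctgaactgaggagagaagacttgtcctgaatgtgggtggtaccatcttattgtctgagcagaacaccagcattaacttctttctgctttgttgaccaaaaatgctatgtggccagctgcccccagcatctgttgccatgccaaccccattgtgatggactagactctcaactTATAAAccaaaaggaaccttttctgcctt
Hdac9, inner start, chr12:34528890-34529139, minus strand: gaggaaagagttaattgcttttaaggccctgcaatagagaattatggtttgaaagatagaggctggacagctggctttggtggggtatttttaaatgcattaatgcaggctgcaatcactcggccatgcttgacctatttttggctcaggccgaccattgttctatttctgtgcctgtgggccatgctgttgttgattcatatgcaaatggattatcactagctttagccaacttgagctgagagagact
Ezh2, chr6:47595031-47595280, minus strand: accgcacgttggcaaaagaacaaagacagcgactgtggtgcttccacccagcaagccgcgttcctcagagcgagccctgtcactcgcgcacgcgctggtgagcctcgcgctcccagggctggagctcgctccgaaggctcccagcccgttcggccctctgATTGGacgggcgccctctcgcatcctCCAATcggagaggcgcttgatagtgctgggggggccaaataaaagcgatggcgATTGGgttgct
Eed, chr7:89980977-89981226, minus strand: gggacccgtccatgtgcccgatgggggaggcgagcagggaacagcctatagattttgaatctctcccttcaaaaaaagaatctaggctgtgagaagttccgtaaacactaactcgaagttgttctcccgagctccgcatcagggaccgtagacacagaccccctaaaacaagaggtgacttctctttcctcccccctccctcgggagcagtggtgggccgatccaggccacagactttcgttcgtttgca
Smarca4 has 3 GC boxes and 25 CG dinucleotides here, more CG than 89.3% of 32851 promoter windows of this length, and Smarca2 has 2 GC boxes and 28 CG dinucleotides. The outer Hdac9 start has 0 CG dinucleotides and 1 TATA box, and the inner start has 2 CG dinucleotides and 0 of the searched motifs. Ezh2 has 3 CCAAT boxes, and Eed has 0 of the searched motifs. A GC box is found in 32.7% of all windows, a CCAAT box in 33.8% and a TATA box in 12.4%. These matches describe the letters only.

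The median intensity of the arrays lay between 38.1 and 39.3, near 5.3 on the log2 scale, and their number limits the precision of every value. Mean log2 intensity was at least 7 for 58 of the 83 member probe sets and lay below every array's median for 10. All 7 measured plasma cell markers were above 7 on every array (8.43 to 14.49), among them Sdc1, Irf4, Prdm1 and Jchain. The B cell markers Pax5, Cd79a and Cd22 lay between 4.96 and 5.55, while Ms4a1 and Cd79b lay between 11.01 and 11.85. Of 5 T cell, 5 myeloid, 5 fibroblast and 3 erythroid markers, 0 were above 7 on all arrays. Some markers moved with the class. Xbp1, Tnfrsf17 and the myeloid marker Itgam (8.14 on both low, 6.55 and 6.97 on the high switching arrays) were lower in high switching subclones. Cd79b and Lum were higher. The other plasma cell markers were not called and went both ways. Prdm1 differed by 0.74 (limma adjusted p = 0.119), Sdc1 by 0.11, Jchain by 0.04, Irf4 by 0.03 and Mzb1 by -0.38. The summed myeloid intensity was 457 to 459 in low and 303 to 319 in high switching subclones. Of the myeloid markers only Itgam was called, and the others did not fall with it. Csf1r differed by 0.28, Cd14 by 0.20, Lyz2 by 0.12 and Adgre1 by -0.01. The part of these markers in the members' differences was not tested. In a culture, fewer cells with a transcript and less transcript in each cell cannot be told apart.

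Setting high against low switching subclones asks which of these genes differ between the classes. Of the 83 member probe sets, limma called 2 higher and 0 lower at an adjusted p under 0.05, and both belong to Smarca4, the ATPase that drives SWI/SNF complexes. Over all probe sets 3.59% passed, 1.5% as higher and 2.1% as lower, so the members' share of 2.41% is near that of the array. Among probe sets with a mean of at least 7, the share was 3.45% for members and 7.21% for all, and among the probe sets with the highest mean of each gene it was 3.12% (1 of 32) and 4.82%. At an unadjusted p under 0.05 there were 7 higher and 8 lower members in limma, 18.1% of them against 18.6% of all probe sets (8.96% higher and 9.67% lower). None of the 83 differed 2-fold between class means, against 1.79% of all probe sets. For 27 member probe sets both high switching arrays lay above both low switching arrays and for 22 both lay below, together 59%, against 47.3% of all probe sets (25.1% and 22.2%). Among probe sets with a mean of at least 7 these shares were 65.5% for members and 63.5% for all, and by gene they were 78.1% and 51.4%. With 2 arrays in each class, the smallest p of a two-sided exact permutation test is 0.333.

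**Figure D1:**
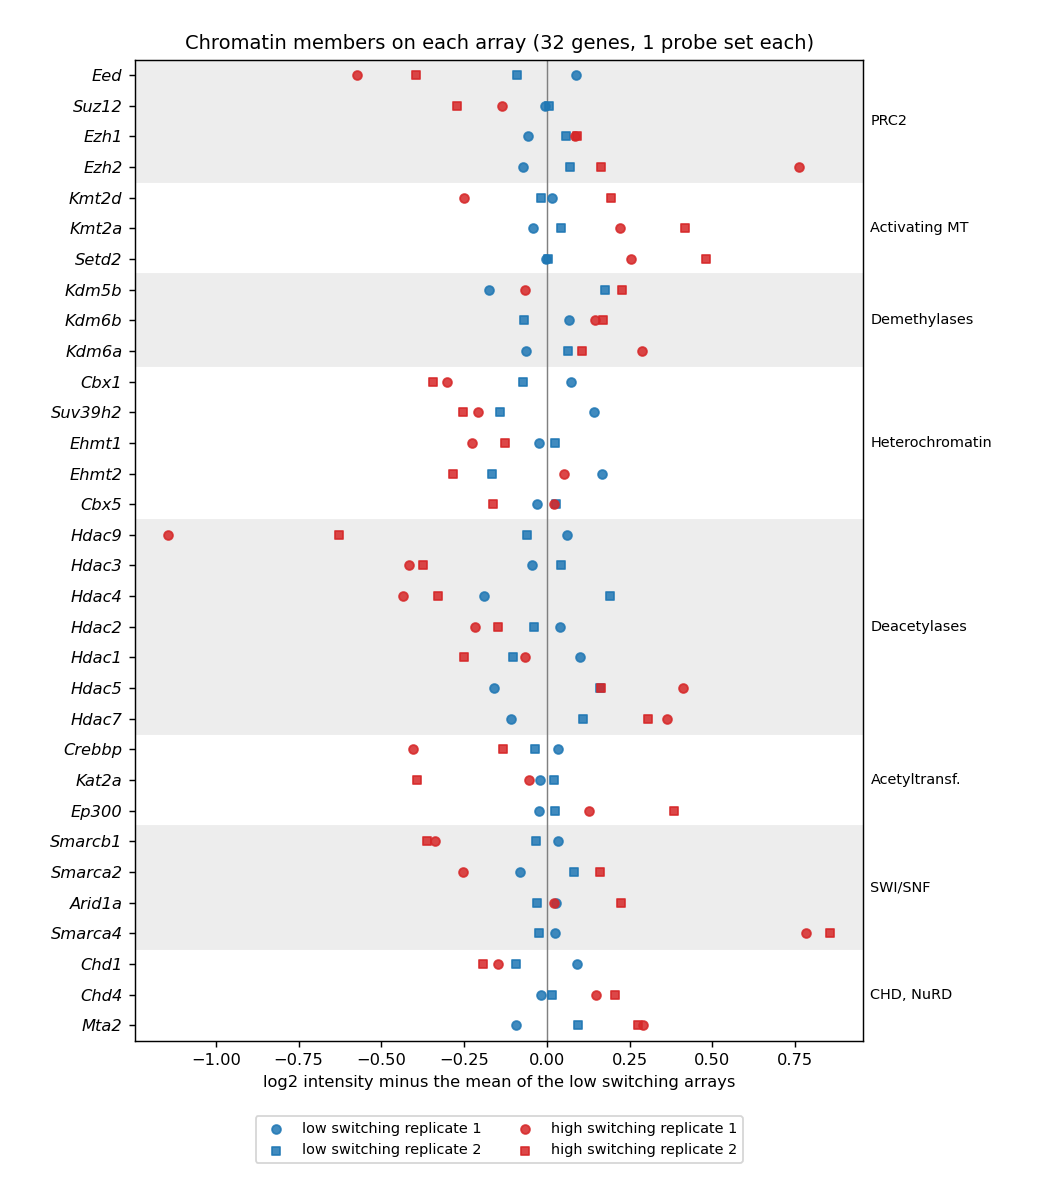
Log2 intensity of the probe set with the highest mean for each of 32 members on the 4 arrays, each shown minus the mean of the low switching arrays; blue points are low and red points high switching, circles replicate 1 and squares replicate 2, and rows are grouped by role. Smarca4 is the member whose high switching points both lie furthest to the right, and those of Hdac9 lie furthest to the left.

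Among the members of SWI/SNF, Smarca4 rose in high switching subclones. Its brighter probe set read 10.47 and 10.42 (log2) in low switching replicates 1 and 2 and 11.23 and 11.30 in high switching replicates 1 and 2. The arrays of a class differed by 0.05 and 0.07, and the classes did not overlap. The difference in log2 intensity was 0.82 ± 0.11 (SE; 95% interval 0.56 to 1.08), which is 1.76-fold (limma adjusted p = 0.0195). The second probe set read 8.61 and 8.59 against 9.63 and 9.56, which differ by 0.99 ± 0.10 (limma adjusted p = 0.0124). When 1 array was left out, the brighter probe set kept a difference of 0.78 to 0.86 and no longer passed: its adjusted p was 0.1 without L25, 0.0877 without L27, 0.0649 without H23 and 0.0758 without H27. The second probe set passed without H27 (adjusted p = 0.0437) and had an adjusted p between 0.0537 and 0.0729 without each of the others. With a block for the signal of the hybridization controls, which was higher on L25 and H27 than on L27 and H23, neither passed (adjusted p = 0.0931 and 0.0857).

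Smarca2, the alternative ATPase of the same complexes, gave no single answer. The probe set with the highest mean read 8.60 and 8.76 in low and 8.43 and 8.84 in high switching subclones, so the classes overlapped, and its difference was -0.05 ± 0.16 (95% interval -0.45 to 0.35). Its dimmer probe set read 6.20 and 6.45 against 6.91 and 6.94, a difference of 0.60 ± 0.12 that did not pass (limma adjusted p = 0.0611). With probe sets of a mean under 6 left out it passed (adjusted p = 0.0461), as it did with quantile normalization applied again (0.0494). It did not pass with the variance trends (0.0837 and 0.0811), the hybridization control block (0.14) or the median of neighbouring genes subtracted (0.111). With 1 array left out its difference was 0.48 to 0.72. Smarcb1, a core subunit, read 10.41 and 10.34 in low and 10.04 and 10.01 in high switching subclones. Its difference of -0.35 ± 0.11 did not pass (limma adjusted p = 0.147), though the classes did not overlap. Arid1a, a DNA-binding subunit of the BAF form, had a difference of 0.12 ± 0.12 with overlapping classes.

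Smarca4 lies on chromosome 9 among genes that were also higher. Of the 40 nearest measured genes on that chromosome whose mean level (log2) was 7 or more, 20 on each side, 39 had a difference above 0 and their median was 0.48; 9 passed as higher and 0 as lower. The difference of Smarca4 was larger than that of all but 5 of these neighbours. With the median of its neighbours subtracted, the difference was 0.34 (adjusted p = 0.12) for the brighter and 0.51 (adjusted p = 0.0647) for the second probe set, and neither passed. The part of the neighbourhood in the difference of Smarca4 was not tested beyond this subtraction. Kmt2a and Setd2 lie on the same chromosome, with neighbour medians of -0.07 and -0.02, so the shift around Smarca4 did not cover the whole chromosome, whose genes had a median of 0.01.

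**Figure D2:**
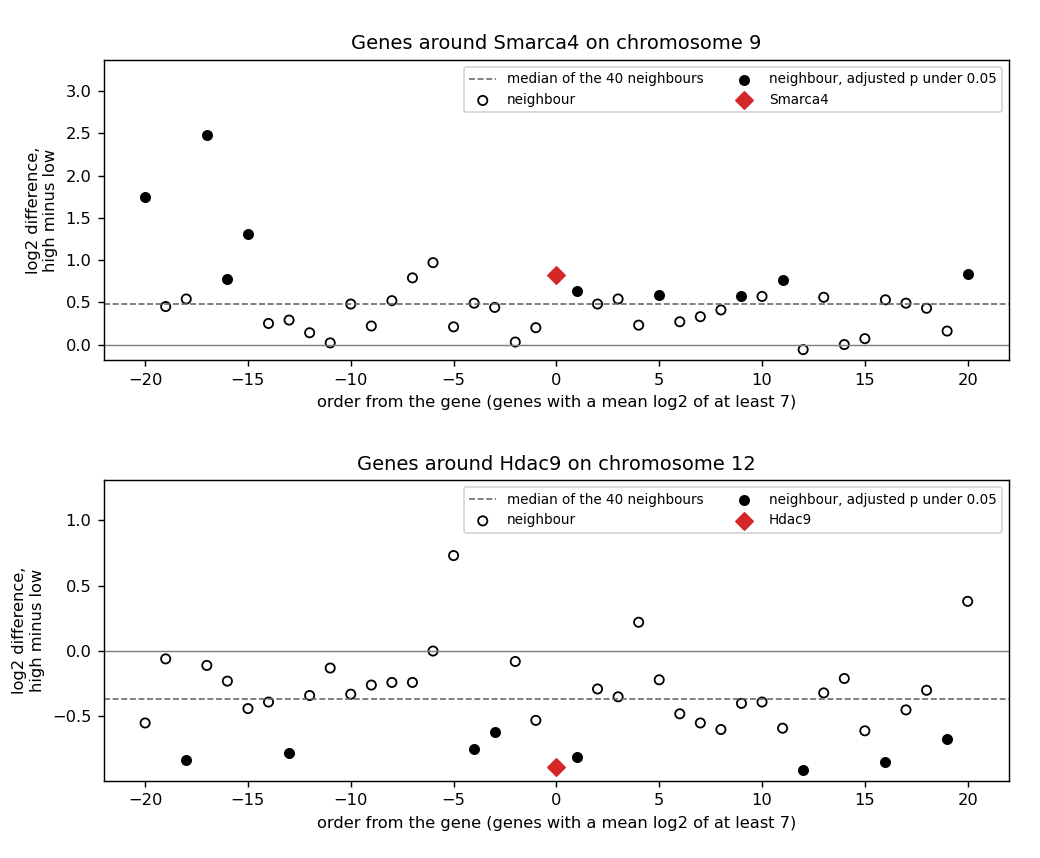
Log2 difference (high minus low switching) of the 40 nearest genes with a mean level of 7 or more (log2) around Smarca4 and around Hdac9, in their order along the chromosome; filled points passed an adjusted p under 0.05, the dashed line is the median of the neighbours and the diamond is the member. Around Smarca4, 39 of 40 neighbours lie above 0; around Hdac9, 36 lie at or below it.

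The deacetylases remove acetyl groups from histones and other proteins. On the probe set with the highest mean, 5 of 7 were below 0 and 2 above, under each of the 3 other scalings as well, and limma called 0 of their 13 probe sets (2 higher and 3 lower at an unadjusted p under 0.05). The 9 other deacetylases and sirtuins named below leaned the other way, with 7 above 0 and 2 below. With each array centred on its median these counts were 5 and 4. Hdac9, a class IIa enzyme that binds MEF2 factors, had the largest negative difference of any member. It read 6.28 and 6.16 in low and 5.08 and 5.59 in high switching subclones. The classes did not overlap, and the high switching arrays differed from each other by 0.51. The reading on H23 was below that array's median of 5.27, so the size of the difference and its rank are approximate. Its difference was -0.89 ± 0.18 (95% interval -1.33 to -0.44), with a limma adjusted p of 0.0611. It passed without H27 (-1.14, adjusted p = 0.038) and not without H23 (-0.63), L25 (-0.83) or L27 (-0.95). It also passed with the 3 other scalings (adjusted p = 0.0432 to 0.0482) and with 1 probe set for each gene (0.0492). A second Hdac9 probe set, at 5.45 and 5.53 against 5.29 and 5.28, had a difference of -0.20 ± 0.11.

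The surroundings of Hdac9 on chromosome 12 were lower too. Of its 40 neighbours 4 were above 0, 8 passed as lower and 0 as higher, and their median was -0.37, which left -0.52 for Hdac9 after subtraction. Of the class I enzymes, Hdac3, the catalytic subunit of NCoR complexes, read 9.44 and 9.52 in low and 9.07 and 9.11 in high switching subclones. Its difference of -0.40 ± 0.11 did not pass (limma adjusted p = 0.115), and the median of its neighbours on chromosome 18 was -0.29. Hdac1 and Hdac2, the paired catalytic subunits of NuRD and Sin3 complexes, had differences of -0.16 ± 0.13 and -0.18 ± 0.11. Hdac2 read 11.54 and 11.46 against 11.28 and 11.35, without overlap. The other class IIa enzymes went both ways, and none passed: Hdac4 had a difference of -0.38 ± 0.15, Hdac5 of 0.29 ± 0.16 and Hdac7 of 0.33 ± 0.12. Hdac7 gave 0.32 on its second probe set as well, and its classes did not overlap on either.

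Polycomb repressive complex 2 places the repressive methyl mark of Polycomb, with Ezh2 or Ezh1 as its catalytic subunit and Eed and Suz12 as its other core subunits. limma called 0 of the 13 probe sets of these genes, and 1, of Eed, had an unadjusted p under 0.05. Eed, which binds the mark, read 11.79 and 11.61 in low and 11.13 and 11.31 in high switching subclones. Its difference was -0.48 ± 0.13 (95% interval -0.79 to -0.18), without overlap of the classes, and its adjusted p of 0.106 missed the threshold. Ezh2 read 9.86 and 10.00 in low switching subclones and 10.69 and 10.10 in high switching replicates 1 and 2. High switching replicate 2 lay just above the low switching arrays, and the difference of 0.46 ± 0.20 (limma adjusted p = 0.302) was 0.16 without replicate 1 and 0.76 without replicate 2. The neighbours of Ezh2 had a median of 0.24, with 35 of 40 above 0, which left 0.22 for Ezh2 after subtraction. Those of Eed had a median of -0.18, with 10 of 40 above 0, which left -0.31. Suz12 read 11.66 and 11.67 against 11.53 and 11.39, a difference of -0.20 ± 0.11. Ezh1, with 9.72 and 9.83 against 9.86 and 9.86, had a difference of 0.09 ± 0.11 (95% interval -0.18 to 0.35).

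The methyltransferases of active genes were represented by Kmt2a, Kmt2d and Setd2, the last of which marks the bodies of transcribed genes. Setd2 read 8.94 on both low switching arrays and 9.19 and 9.42 on the high switching arrays. The classes did not overlap, and the difference of 0.37 ± 0.12 did not pass (limma adjusted p = 0.18). Kmt2a read 7.47 and 7.55 against 7.73 and 7.93, a difference of 0.32 ± 0.12 (adjusted p = 0.229). Its second probe set gave 0.32 ± 0.28, with 7.17 in high switching replicate 1 and 8.09 in replicate 2, the widest gap between arrays of a class among the 83 probe sets. Kmt2d had a difference of -0.03 ± 0.16 with overlapping classes.

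The demethylases that undo these marks had small differences. Kdm6b and Kdm6a, which remove the Polycomb mark, had differences of 0.16 ± 0.11 and 0.20 ± 0.12, and Kdm5b, which removes a mark of active promoters, had 0.08 ± 0.17. Kdm6b read 9.65 and 9.51 in low and 9.72 and 9.75 in high switching subclones, and Kdm6a 8.09 and 8.21 against 8.44 and 8.26. All 3 were above 0 under each scaling, but limma called 0 of their 11 probe sets, also at an unadjusted p under 0.05, and dimmer probe sets of Kdm6b (-0.25) and Kdm6a (-0.27) were below 0.

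The group named heterochromatin held Suv39h2, Ehmt1 and Ehmt2, which place repressive methyl marks on the histone residue H3K9. It also held Cbx1 and Cbx5, HP1 proteins that read such marks. On the probe set with the highest mean all 5 had a difference below 0 under each scaling, 4 of 5 with the median of neighbours subtracted, and limma called 0 of their 16 probe sets (0 higher and 2 lower unadjusted). Of the 5 other heterochromatin genes named below, 2 were above 0 and 3 below, with a median of -0.03. Cbx1 read 10.99 and 10.84 in low and 10.61 and 10.57 in high switching subclones, a difference of -0.32 ± 0.11 (adjusted p = 0.196) without overlap. Its second probe set gave -0.31, while its other 3 gave 0.05 to 0.13. Suv39h2 and Ehmt1 had differences of -0.23 ± 0.13 and -0.18 ± 0.11, and the classes did not overlap for either. A dimmer Suv39h2 probe set gave 0.15. Ehmt2 (-0.12 ± 0.17) and Cbx5 (-0.07 ± 0.12) had overlapping classes, and the other 4 Cbx5 probe sets were above 0 (0.05 to 0.23), so the direction of Cbx5 depends on the probe set.

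Of the acetyltransferases, Ep300 and Crebbp, close relatives that act at enhancers, had differences of opposite sign. Ep300 read 9.52 and 9.57 in low and 9.68 and 9.93 in high switching subclones (0.26 ± 0.13), and Crebbp 9.52 and 9.46 against 9.08 and 9.36 (-0.27 ± 0.13). Neither passed (limma adjusted p = 0.362 and 0.352), and the Crebbp probe sets disagreed in sign. The neighbours of Crebbp on chromosome 16 had a median of -0.44, so its difference was 0.17 after subtraction. Kat2a, the acetyltransferase of SAGA complexes, read 10.47 and 10.51 against 10.43 and 10.10, and high switching replicate 2 alone was clearly lower.

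The CHD remodellers and NuRD were represented by Chd1, Chd4 and Mta2. Mta2, a scaffold of NuRD, read 9.80 and 9.99 in low and 10.18 and 10.17 in high switching subclones, a difference of 0.28 ± 0.12 (limma adjusted p = 0.272). Chd4, the ATPase of NuRD, had differences of 0.18, 0.21 and 0.12 on its 3 probe sets, each without overlap and none passing. Chd1, a remodeller of transcribed genes, had -0.17 ± 0.12 on the probe set with the highest mean and -0.54 ± 0.18 on another, where it read 8.16 and 7.996 against 7.29 and 7.77 (adjusted p = 0.175). Its remaining probe sets gave 0.09, without overlap of the classes, and -0.05.

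**Figure D3:**
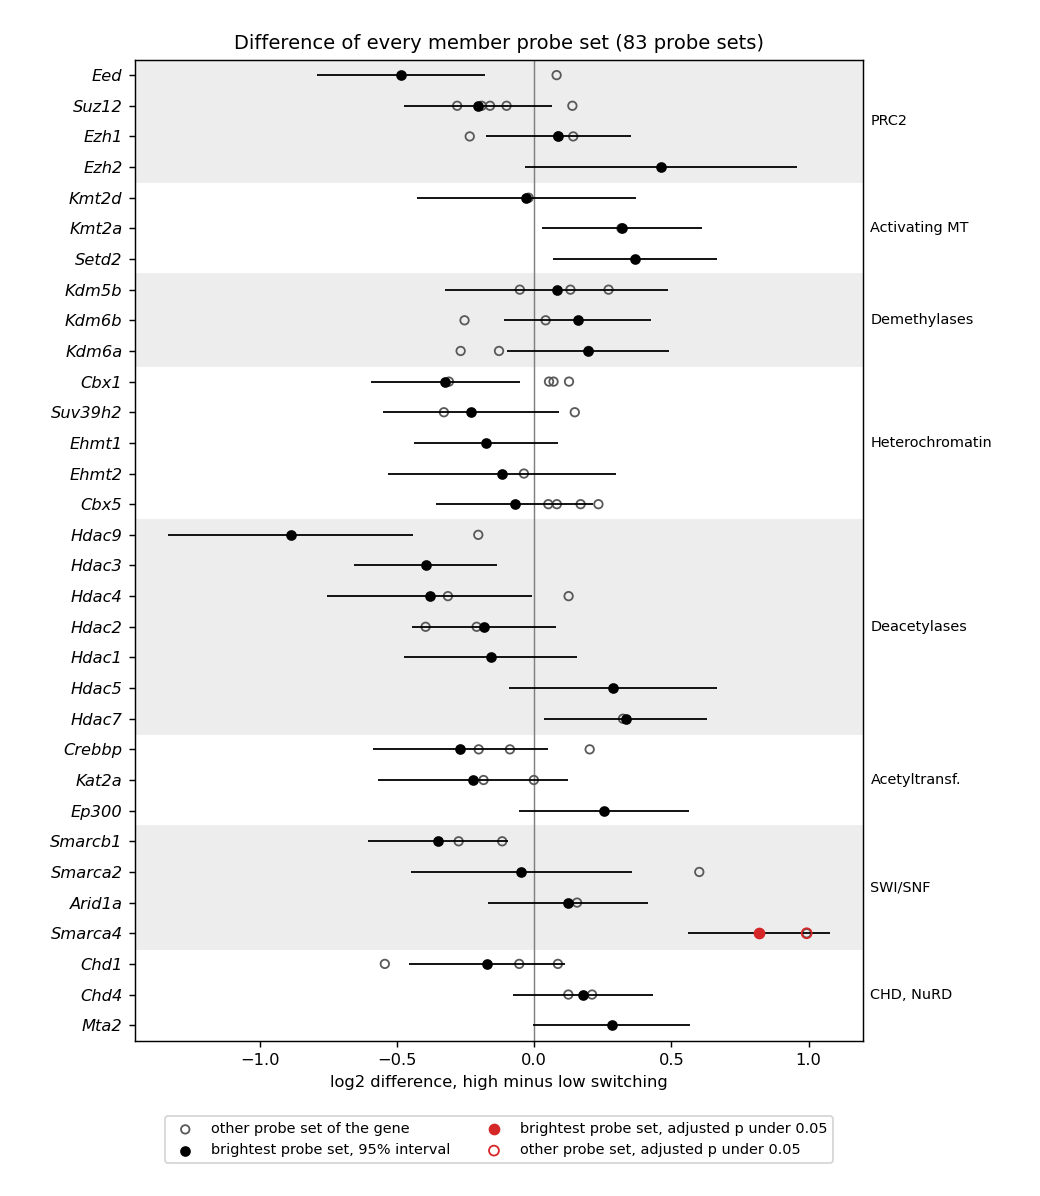
Log2 difference (high minus low switching) of all 83 member probe sets in rows for the 32 genes; filled points are the probe set with the highest mean, with its 95% interval, open points the other probe sets of the gene, and red marks an adjusted p under 0.05. Only the points of Smarca4 are red, and the other differences lie between -0.89 and 0.60.

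On the probe set with the highest mean, 14 of 32 genes were above 0 and 18 below, with a median difference of -0.06, against 0.01 over all 18193 genes. With quantile normalization applied again 16 were above and 16 below. The median size of the difference, without its sign, was 0.23 for these 32 and 0.15 for all genes, and over probe sets with a mean of at least 7 it was 0.20 for the 58 members and 0.23 for all 14489. The arrays of a class differed by a median of 0.14 (low switching) and 0.15 (high switching) over the 83 member probe sets. Among the 24 genes with several probe sets, 13 had probe sets of opposite sign. Of the 18 genes with several probe sets at a mean of at least 7, 4 did.

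The differences of the members shared the sign of their chromosomal neighbours about as often as those of all genes. The sign of the member was that of the median of its neighbours for 23 of 32 genes (71.9%), and for 73.1% of the 8205 genes with a mean of at least 7. Across the 32 genes, which are not independent replicates, Pearson's r between the member's difference and its neighbours' median was 0.78 and Spearman's rho 0.79, and r was 0.66 without Smarca4 and Hdac9. Over the 8205 genes r was 0.47 and rho 0.55. Over 164 of the other chromatin genes described below, r was 0.57 and rho 0.62. Both quantities come from the same 4 arrays, and members on the same chromosome, such as the 6 on chromosome 11, can share neighbours.

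**Figure D4:**
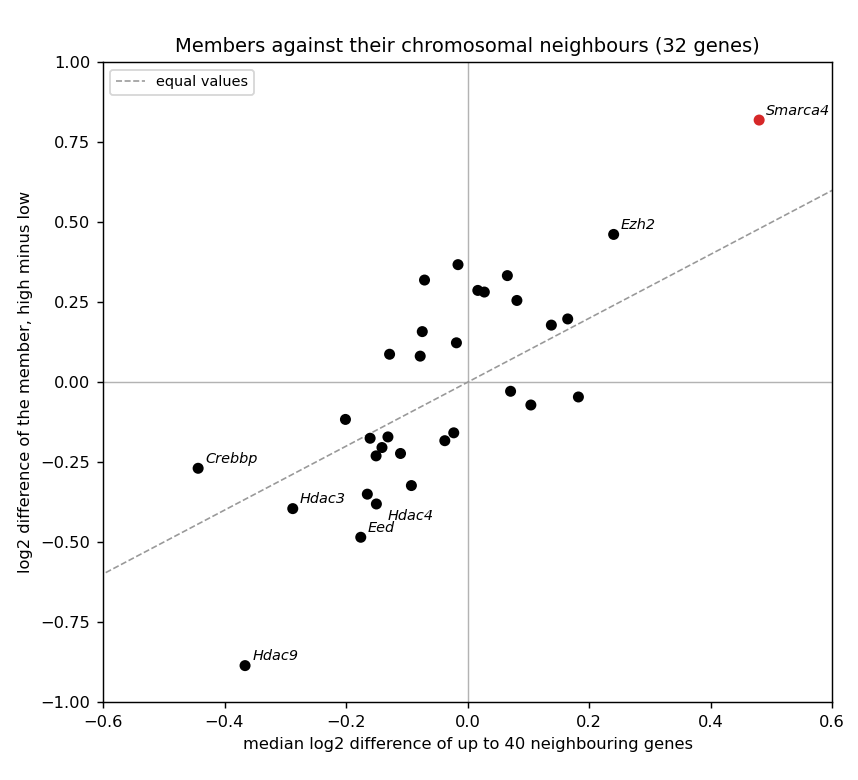
Log2 difference of each of 32 members (vertical) against the median log2 difference of up to 40 neighbouring genes (horizontal), high minus low switching; the dashed line marks equal values and red an adjusted p under 0.05. Smarca4 lies at the upper right (0.48, 0.82) and Hdac9 at the lower left (-0.37, -0.89).

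Other genes of the same machinery were read from a list of 173, of which 166 had probe sets (432 in all). limma called 9 of these probe sets higher and 14 lower (7 and 9 genes), 2.08% and 3.24%, against 1.5% and 2.1% of all probe sets. Among probe sets with a mean of at least 7 the shares were close, 7.28% of the list (19 of 261) and 7.21% of all. The median difference over the 166 genes was -0.02, against 0.01 over all genes. When 1 array was left out, the calls of 21 of the 23 probe sets ended whichever array it was. That of Mta1 held without L27 (adjusted p = 0.0205) and without H27 (0.0283), and that of Phf10 without H27 (0.0245).

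Among the partners of Polycomb, Mtf2 and Jarid2, which bring PRC2 to DNA, fell in high switching subclones. Mtf2 fell on 4 of its 6 probe sets, and its brightest read 11.28 and 11.36 in low against 10.63 and 10.67 in high switching subclones (-0.67 ± 0.11, limma adjusted p = 0.0329). Jarid2 passed on 1 of 3 probe sets (-0.70 ± 0.10), which was not its brightest, and the others gave -0.48 and -0.51. In PRC1, the alternative ring finger subunits went opposite ways: Pcgf3 fell (-0.84 ± 0.13) on 1 of 3 probe sets, and Pcgf6 rose (0.79 ± 0.11 and 1.11 ± 0.17) on 2 of 3. The neighbours of Pcgf6 on chromosome 19 had a median of 0.51, and both its calls ended with it subtracted (0.28 and 0.61). The same subtraction ended the calls of Pcgf3 (-0.57, adjusted p = 0.0711), Jarid2 (-0.55, 0.0577) and 3 of the 4 Mtf2 probe sets (0.0604 to 0.0768), while the fourth passed (-0.66, 0.0482).

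Among the other subunits of SWI/SNF, 5 of 20 genes were above 0 and 15 below. Bcl7a (-0.71 ± 0.12) and Bcl7c (-0.74 ± 0.11) fell, as did Phf10, a subunit of the PBAF form, on its dimmer probe set alone. On that probe set Phf10 read 8.17 and 7.995 in low and 6.68 and 7.15 in high switching subclones (-1.17 ± 0.18). Its brighter probe set, which stands for the gene, gave -0.12. Under the other scalings 4 to 6 of the 20 were above 0, and with the median of neighbours subtracted 9. Bcl7a passed on 1 of 5 and Bcl7c on 1 of 4 probe sets, and neither passed after that subtraction (-0.53 and -0.45, adjusted p = 0.0692 and 0.0825), while Phf10 did (adjusted p = 0.0494).

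Mta1, a relative of Mta2 in NuRD, had the largest difference of the list. It read 7.34 and 8.04 in low and 10.24 and 9.71 in high switching subclones, a 4.89-fold difference (2.29 ± 0.27, limma adjusted p = 0.0157), while its second probe set gave -0.09. On chromosome 12 the nearest measured genes on one side of Mta1 rose as well: Crip2 by 5.36 (limma adjusted p = 0.000339), Crip1 by 6.08 (0.000447) and Tedc1 by 1.29 (0.00954). These were the 3 called among its 29 neighbours, whose median was 0.13. With that median subtracted Mta1 still passed (2.16, adjusted p = 0.0206), but the median does not carry the larger differences beside it, and their part in the Mta1 difference was not tested. With 1 array left out its difference ranged from 1.94 to 2.64, and its adjusted p was 0.0545 without L25 and 0.0526 without H23.

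The COMPASS enzymes and their partners, relatives of Kmt2a and Kmt2d, had 12 of 13 genes below 0, with a median of -0.32, and 1 above. The gene above 0 was Ash2l, a shared core subunit, which rose (10.54 and 10.39 against 11.14 and 11.05; 0.63 ± 0.12, limma adjusted p = 0.0457) on its brighter probe set. Its call ended with the median of neighbours subtracted (0.49, adjusted p = 0.0801), and its other probe set gave -0.02 with overlapping classes. limma called 0 of the other 12, of which Men1 (-0.46 ± 0.11, adjusted p = 0.0934), Rbbp5 (-0.41 ± 0.10, 0.0988), Dpy30, Paxip1 and Setd1a had an unadjusted p under 0.05. The counts held under each scaling, but with the median of neighbours subtracted 4 were above and 9 below 0 and the median was -0.06. Over all genes, without that subtraction, 8751 of 18193 were below 0.

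Among the remaining enzymes, the demethylase Phf8 (0.57 ± 0.10) and the arginine methyltransferases Prmt2 (0.75 ± 0.13) and, on 1 of 2 probe sets, Prmt6 (0.88 ± 0.12) rose. Prmt1, the main enzyme of that class (-0.56 ± 0.11), and, on 1 of 5 probe sets, the methyltransferase Nsd2 (-0.73 ± 0.11) fell. The brightest probe sets of Prmt6 (1.15 ± 0.22, adjusted p = 0.0523) and Nsd2 (-0.44 ± 0.14, 0.165) did not pass. On the probe set that passed, Prmt6 read 4.22 and 3.99 against 5.01 and 4.96, below the median of every array, so the size of its difference is approximate. In corepressor complexes Arid4b, a subunit of Sin3 complexes, fell on 3 of 6 probe sets (-0.78 to -0.91) and its other 3 were also below 0. The scaffold Sin3b rose on 1 of 5 (0.71 ± 0.13), which was not its brightest. With the median of neighbours subtracted Phf8 (0.66) and both Prmt2 probe sets (0.85 and 0.84) still passed. The calls of Arid4b (-0.38 to -0.51), Nsd2 (-0.39), Prmt1 (-0.35), Prmt6 (0.52) and Sin3b (0.48) ended, with adjusted p between 0.0662 and 0.145. Of the 33 probe sets of 16 acetyltransferases limma called 0, and the genes ranged from -0.71 to 0.41. At an unadjusted p under 0.05, 1 of the 33 was higher and 10 lower in limma. Over all probe sets these shares were 8.96% and 9.67%. Some of the 10 belong to the same gene, such as Ing5. By gene, 8 of the 16 were above 0 and 8 below, with a median of -0.001. limma also called 0 of 60 probe sets of the 19 ISWI and INO80 genes (7 higher and 4 lower unadjusted). The 9 other deacetylases and sirtuins had 0 calls in 11 probe sets (1 and 1). The 5 bromodomain readers had 0 in 19 (1 and 0), and the 5 other heterochromatin genes 0 in 9 (1 and 2).

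**Figure D5:**
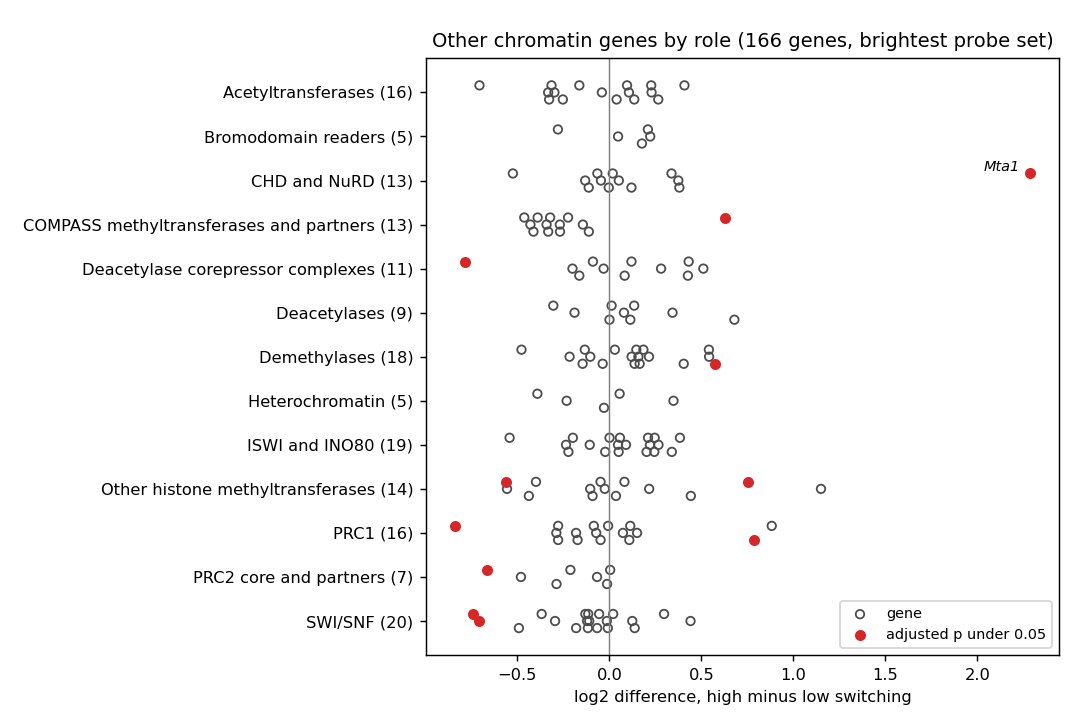
Log2 difference (high minus low switching) of 166 other chromatin genes on the probe set with the highest mean, in rows by role with the number of genes; red points passed an adjusted p under 0.05. Mta1 stands apart at 2.29 on its brighter probe set. Of 13 COMPASS genes 12 lie below 0, and 9 did with the median of neighbours subtracted.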

How the data were processed

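The deposited intensities were made by the authors with RMA, per the submitters' processing notes; RMA corrects background, normalizes between arrays and summarises probes, and its version and the genome build are not given in the sources used here. The values are on a linear scale and were transformed to log2. RMA shrinks differences of dim probe sets. After removal of 64 control probe sets, 45037 entered the fit unfiltered. Of these, 34945 have 1 symbol in the platform annotation of 2016, 932 have several and 9160 have none; only the first kind was named. Names, chromosomes and gene order for 34741 came from a table of GRCm38.p6.

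The test of high minus low switching was limma 3.58.1's moderated two-sided one (R 4.3.3); p-values were adjusted by Benjamini-Hochberg across every tested probe set, with calls at 0.05. SE is the moderated standard error. The probe set with the highest mean stood for its gene. Members and lists were chosen with earlier results of these data known. Values on each array are given for members that passed and, in each role, for those with the largest difference and the highest level; listed genes were named where a probe set passed. Men1, Rbbp5, Dpy30, Paxip1 and Setd1a and some further array values were added after their values were seen. Neighbours are up to 20 genes on each side with a mean level of 7 or more. The fit was tested on 5 draws of simulated data, each with 200 changed probe sets of a mean level of 7 or more among 45037. It recovered 0.4% of log2 changes of 0.5, 40% of 1, 95.6% of 2 and 100% of 4. A gene that was not called may therefore still differ by 0.5, or by 1. Recovery at lower levels, or with another number of changed probe sets, was not simulated. Alternatives were other variance models, filters, scalings, probe set choices, a block and leaving out each array. Plots used matplotlib 3.10.9.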

Additional observations from a re-analysis of the deposited data

How the results depend on the processing

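The 2 calls of Smarca4 held under the variance trends, filters on dim probe sets, other scalings and probe set choices that were run, except that only 1 of its probe sets stands for the gene in the fit of 1 probe set each. With quantile normalization applied again 4 member probe sets passed (Hdac9 and a Smarca2 probe set were added). A block for hybridization control signal, which crosses the classes (10.72 for L27, 10.79 for H23, 11.32 for L25, 11.23 for H27), leaves fewer degrees of freedom; with it, 0 members, 1 listed chromatin gene and 152 of all probe sets passed. With the median of neighbouring genes subtracted the counts were 0, 7 and 905. Leaving out each array gave 0 to 2 member probe sets, 0 to 2 of the chromatin list and 308 to 582 of all, against 2, 23 and 1618; the cause was not tested beyond the loss of an array. With 1 array left out, a class of 1 array is assumed to vary like the other. With 1 probe set for each gene, 25 of 32 members (78.1%) had classes that did not overlap, against 51.4% of all genes. These probe sets were brighter: 31 of 32 had a mean of at least 7, against 8222 of 18193 genes. The part of the level in this share was not tested. No paired analysis was possible because the replicate numbers follow the order of the samples and the labels pair no subclones. The median SE of a member's difference was 0.13 and the median size of a difference 0.19, so 2 arrays for each class limit what could pass.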
